A study of Mus musculus with 12 samples.

Results

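The cytosolic ribosome of a mouse cell is built from ribosomal RNA and a fixed set of ribosomal proteins. The genes of these proteins form a module of 85 rows in the deposited table of 25239 genes. Members were taken by symbol alone: Rpl or Rps followed by a number and at most a short suffix, with Rplp0, Rplp1, Rplp2 and Rpsa. By symbol, 52 belong to the large (60S) and 33 to the small (40S) subunit. Of these symbols, 8 carry the suffix l or l1 of a gene copy (Rpl3l, Rpl7l1, Rpl10l, Rpl22l1, Rpl32l, Rpl39l, Rps4l and Rps27l). The remaining 77 are called conventional members here. Mitochondrial ribosomal proteins, of which the table holds 78, and 4 cytosolic ones named otherwise, Rack1 among them, lie outside the rule and served for comparison.

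Ribosomal protein genes are strongly transcribed in growing cells, their messengers often begin with a tract of pyrimidines (the 5′ TOP motif) through which mTORC1 and LARP1 control translation, and an even supply of the proteins is needed to assemble subunits in the nucleolus. Several mammalian members have a diverged copy with narrower expression: Rpl3l in heart and skeletal muscle, Rpl10l and Rpl39l in the testis. Rpl7l1 is related to yeast Rlp7, a factor of early 60S assembly, and is therefore closer to the biogenesis machinery than to the finished ribosome.

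Bulk RNA-seq was made from skin fibroblasts of wild-type male C57BL/6 mice aged 8 weeks. Full-thickness back wounds from a 4 mm punch were collected at 16 h, 1.5 d and 3 d, and unwounded back skin (NW) was collected from other mice, with 3 mice in each of the 4 groups. Live cells were sorted for the surface protein SCA1 and against CD45 and CD31, so that each library is a pool of sorted cells from a single mouse. The 12 libraries held 26389453 to 43493475 counted fragments, of which 158747 to 587492 fell on members. Levels below are CPM, the counts of a gene relative to the library's total after TMM scaling. The 7 fibroblast markers took 2.79% to 12.9% of counts, and lists for endothelium, neutrophils, macrophages, lymphocytes, pericytes and muscle at most 0.011% each. The 18 keratinocyte markers took 0.0858% to 3.92%. Only Lor and Ivl of that list were at 0 in any library.

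Start sites and reading frames are shown first, because the copies that changed are set against their parent genes below. RefSeq start sites on GRCm38 (mm10) were at hand for 64 of the 85 members. Each line gives 30 bases centred on the start, 15 before it and 15 from it onward, read 5′ to 3′ on the gene's strand. Capitals mark the longest run of C and T that begins with C and holds at least 5 bases. The first 4 lines are copies and parents discussed below, and the last 4 are conventional members with such a run.
Rpl39l: ctcccaggCCTTTCCggatttccggtggtc
Rpl39: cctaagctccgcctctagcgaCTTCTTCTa
Rpl7l1: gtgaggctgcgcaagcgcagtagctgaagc
Rps4x: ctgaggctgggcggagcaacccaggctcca
Rpl7a: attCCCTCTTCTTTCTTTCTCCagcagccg
Rpl35: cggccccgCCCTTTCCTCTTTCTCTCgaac
Rps6: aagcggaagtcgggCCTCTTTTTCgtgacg
Rps18: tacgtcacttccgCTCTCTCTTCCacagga
These windows lie at chr16:10170213-10170242 (plus strand) for Rpl39l, chrX:37085208-37085237 (minus) for Rpl39, chr17:46782642-46782671 (minus) for Rpl7l1 and chrX:102189377-102189406 (minus) for Rps4x. The others lie at chr2:26910792-26910821 (plus) for Rpl7a, chr2:39005117-39005146 (minus) for Rpl35, chr4:86857353-86857382 (minus) for Rps6 and chr17:33955651-33955680 (minus) for Rps18. Such a run was found in 43 of the 64 members (67.2%), in 33 of 69 mitochondrial ribosomal protein genes (47.8%) and in 5061 of 11725 tested genes with a start site (43.2%). Rpl7l1 and Rps4x had none in these 30 bases, which says only that these letters are not in the window, since a RefSeq start need not be the base where most transcripts begin. The 7-letter ETS core CCGGAAG, sought on both strands (CTTCCGG) in the 300 bases from 250 before to 50 after the start, was held by 26 of 64 members (40.6%). It was held by 26 of 69 mitochondrial ribosomal protein genes (37.7%) and 2130 of 11725 tested genes (18.2%). Rpl39l, Rpl39, Rpl35, Rps6 and Rps18 had it; Rpl7l1, Rps4x and Rpl7a did not.

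The coding sequences of Rpl39l (chr16:10170228-10174911, plus strand) and Rpl39 (chrX:37082518-37085222, minus strand), from GENCODE M21, are both 156 bases long. Capitals mark the 23 positions at which they differ.
Rpl39l: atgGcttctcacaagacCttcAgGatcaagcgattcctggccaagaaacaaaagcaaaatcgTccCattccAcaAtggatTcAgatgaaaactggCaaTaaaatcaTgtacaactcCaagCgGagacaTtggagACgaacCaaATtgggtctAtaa
Rpl39: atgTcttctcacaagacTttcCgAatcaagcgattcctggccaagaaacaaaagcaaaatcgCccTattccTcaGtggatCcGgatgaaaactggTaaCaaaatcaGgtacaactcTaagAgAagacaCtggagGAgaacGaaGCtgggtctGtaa
Identity was 85.3% for this pair. The coding sequence of Rpl7l1 (chr17:46773907-46782656, minus strand) matched that of Rpl7 at 64.9% of 706 aligned bases. GENCODE lists Rps4l (chr6:148354656-148355596, plus strand) as a transcribed processed pseudogene, and its longest ATG reading frame of 789 bases matched the Rps4x coding sequence at 80.1% of 789 aligned bases. Rpl32l is listed as a processed pseudogene, and the other 83 members as protein coding.

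The 3 copies called below shared little transcript sequence with other genes, whereas several conventional members and Rpl22l1 shared much. The counting left out fragments with more than 1 alignment and those lying on exons shared by genes. Of all 75-base stretches of a member's transcripts, a median of 30.7% occurred exactly in transcripts of another gene, with 25 members above 50% and 17 below 10%. The share was 0% for Rpl39l, 3.14% for Rpl7l1 and 6.67% for Rps4l, against 7.62% for Rpl39, 37.8% for Rpl7 and 52.9% for Rps4x. It was 50% for Rpl22l1, against 1.41% for its parent Rpl22. In addition, 12 members share exon bases with another gene of the annotation. The 4 with the largest shared part of their exons were Rpl26 (95.8%), Rpl30 (76.0%), Rps27 (60.0%) and Rpl34 (59.9%). They were also the 4 lowest conventional members per length, at 0.0254, 3.27, 2.74 and 11.1 CPM per kb of exon. Levels of these genes are therefore uncertain, and Rpl26 held at most 1 count in any library.

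Members differed widely in level. Rpl13, Rpl4 and Rplp0 were highest per length, at means over the 12 libraries of 533.7, 528.7 and 471.5 CPM per kb. The median of the 82 tested members was 152.3 CPM per kb. The diverged copies stood below this median: Rps27l reached 130.9, Rpl22l1 71.0, Rps4l 57.1, Rpl7l1 52.9, Rpl39l 15.8 and Rpl32l 1.23 CPM per kb. Not all stood below their parents. Rps27l and Rpl22l1 exceeded Rps27 (2.74 CPM per kb, uncertain for its shared exons) and Rpl22 (21.6 CPM per kb). Rpl10l had no count in any library and Rpl3l 0 to 22 counts, the highest in NW replicate 3. With Rpl26, these were the 3 members left untested, and each had at most 22 counts in every library.

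The module moved as a block between mice of the same group. Members took 0.833%, 2.04% and 0.918% of counts in NW replicates 1, 2 and 3, and 1.13%, 1.25% and 1.90% at 16 h. They took 1.47%, 1.16% and 0.789% at 1.5 d, and 0.839%, 0.556% and 1.76% at 3 d. The 95% Wilson intervals, which cover counting error only, spanned at most 0.01 percentage points. All 4 groups overlapped, and the highest library exceeded the lowest by 3.16-fold at 3 d and 2.45-fold in NW. In NW, replicate 2 was the highest library for 80 of the 82 tested members, as it was for 35.8% of all genes tested. Replicate 3 was highest for all 82 members at 16 h (37.0% of all genes) and for 81 at 3 d (35.4%), and replicate 1 for 68 at 1.5 d (40.4%). Large-subunit members took 1.36 to 1.62 times the counts of small-subunit members, so both subunits moved together.

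**Figure D1:**
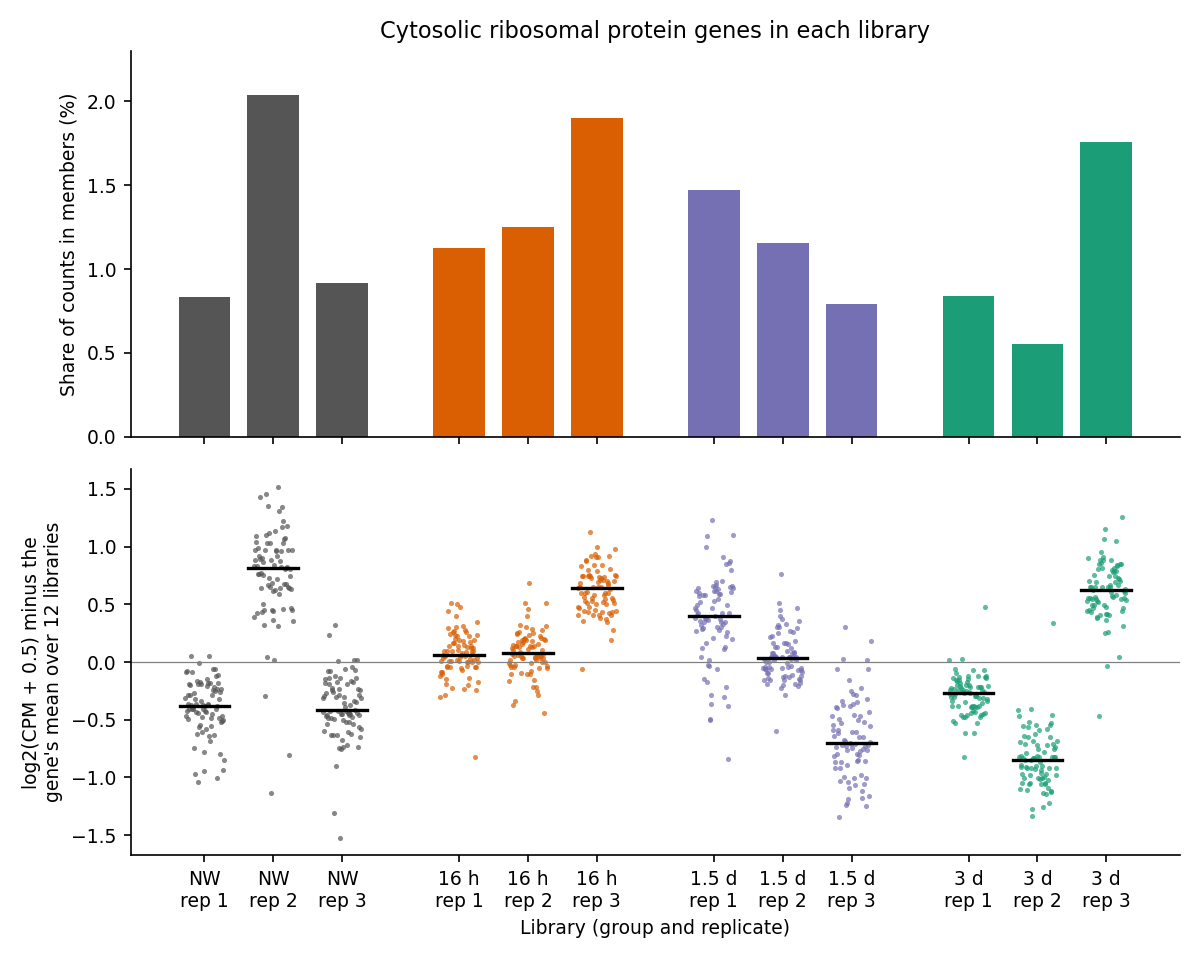
Upper panel: share of each library's counts in the 85 members (%), in 3 libraries of each group. Lower panel: each of the 82 tested members in each library, as log2(CPM + 0.5) minus the member's mean over the 12 libraries, with the median as a black bar; in NW replicate 2, 16 h replicate 3 and 3 d replicate 3 nearly all members lie above zero, and in 3 d replicate 2 nearly all lie below.

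Some other measures moved with the block, and others did so in part of the groups. The 17 other genes known for a 5′ TOP start (Eef1a1, Eef2, Pabpc1 and others) took 0.343%, 0.657% and 0.443% of counts in NW, and 0.458%, 0.604% and 0.802% at 16 h. They took 0.711%, 0.441% and 0.433% at 1.5 d, and 0.400%, 0.299% and 0.586% at 3 d, so the library that was highest for members was highest for them in every group. The same libraries were highest for the mitochondrial ribosomal protein genes, at 0.271% in NW and 0.336% at 16 h, then 0.298% at 1.5 d and 0.273% at 3 d. Keratinocyte markers took 1.95%, 3.92% and 3.27% in NW, and 1.43%, 0.883% and 1.02% at 16 h. They took 0.588%, 0.774% and 0.435% at 1.5 d, and 0.0858%, 0.823% and 1.40% at 3 d. The library with most member counts also held most keratinocyte counts in NW and at 3 d, and did not at 16 h or 1.5 d. The ribosomal RNA row Rn45s took 0.514%, 0.495% and 0.559% of counts in NW, and 1.26%, 0.559% and 2.01% at 16 h. It took 0.359%, 0.712% and 1.07% at 1.5 d, and 0.684%, 0.578% and 0.328% at 3 d. The library highest for members was the highest for Rn45s at 16 h and the lowest for it in the other 3 groups. Members with exons under 600 bases took 0.277 to 0.456 times the counts of those of 900 bases or more, with 0.361 to 0.406 at 16 h and 0.365 to 0.451 in NW. The library highest for members had the highest such ratio in NW and at 3 d, and did not at 16 h or 1.5 d. Tested genes outside the module with exons under 600 bases took most counts in that library in NW (1.52%), at 1.5 d (1.19%) and at 3 d (0.972%). At 16 h they took 0.924% there, against 0.946% in replicate 1. The part of Rn45s or transcript length in the block was not tested, and keratinocyte share was entered as a covariate in an alternative fit given below. In bulk libraries, a change in the mix of sorted cells and a change of RNA per cell cannot be told apart.

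Against this spread, few members were called as changed after wounding, and a member not called may still have changed. At 16 h, Rpl39l and Rpl7l1 rose relative to NW, and no member fell. These are 2 of 82 tested members by the edgeR quasi-likelihood test at an adjusted p under 0.05, where 13.5% of all 14901 genes tested were called higher and 11.2% lower. At 1.5 d, Rpl39l and Rps4l rose relative to NW and none fell, against 13.7% of all genes called higher and 10.8% lower. At 3 d, Rps4l rose relative to NW and none fell, against 12.0% and 9.15%. Between wound times, Rpl7l1 fell at 3 d relative to 16 h and no member rose, where 5.86% of all genes were called higher and 3.67% lower. No member was called at 1.5 d relative to 16 h (2.39% of all genes higher, 0.470% lower), with 1 member higher and 0 lower at an unadjusted p under 0.05. None was called at 3 d relative to 1.5 d (0.101% higher, 0.0403% lower), with 0 members at an unadjusted p under 0.05; DESeq2 and limma-voom also called 0 members in both of these comparisons. Of the 18 keratinocyte markers, 5, 13 and 11 fell and 1 rose at 16 h, 1.5 d and 3 d relative to NW. The fit with their share as a covariate is given with the medians and the copies below. At the same times, 4, 3 and 1 of 5 tested neutrophil markers and 3, 3 and 3 of 8 macrophage markers rose. Of the macrophage markers 1 also fell at 16 h. Of 4 pericyte markers 2, 1 and 0 fell, and of 4 endothelial markers 1, 1 and 1. Of 2 tested lymphocyte and 6 tested muscle markers 0 were called relative to NW. The test over all 4 groups called Rps4l, Rpl39l and Rpl7l1, where it called 29.7% of all genes.

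All members called were diverged copies. Of the 76 conventional members tested, edgeR called 0 in each of the 6 comparisons, with 1 at an unadjusted p under 0.05 at 16 h relative to NW and 1 at 1.5 d relative to NW. DESeq2 and limma-voom also called 0 of them. The median log2 change of the 82 members was 0.14 at 16 h, −0.16 at 1.5 d and −0.20 at 3 d relative to NW, beside −0.04, 0.01 and 0.00 over all genes. The median standard error of a member's change was 0.44 in each of these. Positive changes were found for 60, 27 and 24 of the 82 members at 16 h, 1.5 d and 3 d. The direction of these medians turned with single libraries, and at 1.5 d and 3 d also with keratinocyte share as a covariate. With that covariate the medians were 0.46 at 16 h, 0.30 at 1.5 d and 0.35 at 3 d, beside 0.03, 0.10 and 0.09 over all genes. Every NW library held a larger keratinocyte share (1.95% to 3.92%) than any wounded library (at most 1.43%). That fit therefore cannot fully separate the share from wounding. Without NW replicate 2 the medians were 0.65, 0.35 and 0.31. The 16 h median was −0.02 without NW replicate 1, −0.02 without NW replicate 3 and −0.06 without 16 h replicate 3. The 1.5 d median was 0.10 without 1.5 d replicate 3. The 3 d median was 0.11 without 3 d replicate 2, and −0.70 without 3 d replicate 3. Without NW replicate 2, 6 members were called higher at 16 h (Rpl29, Rpl5, Rpl6, Rpl39l and Rpl7l1 among them), beside 10.4% of all genes. At 1.5 d it was 4 (Rpl34 and Rpl7l1 beside Rpl39l and Rps4l), beside 10.5% of all genes. Without 3 d replicate 3, Rpl22 and Rpl36 were called lower at 3 d relative to NW, at log2 changes of −1.47 and −1.60. Of all genes 7.09% were called lower there. Relative to 16 h the members' medians were −0.29 at 1.5 d and −0.30 at 3 d, and −0.07 and −0.10 without 16 h replicate 3. The 3 d value was −0.02 without 3 d replicate 2 and −0.85 without 3 d replicate 3. The large-subunit median was 0.15 and the small-subunit median 0.11 at 16 h relative to NW.

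**Figure D2:**
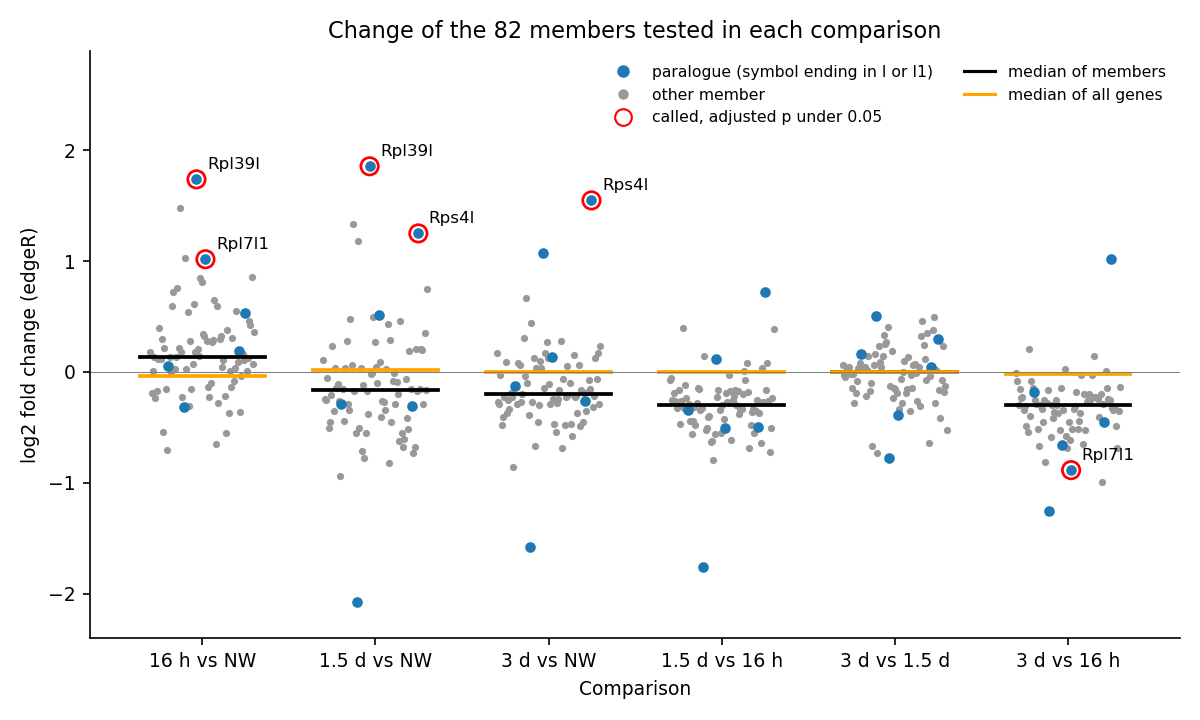
log2 fold change of each of the 82 tested members in 6 comparisons, each named with the later or wounded group first. Blue points are the 6 tested copies whose symbols end in l or l1, grey points the 76 conventional members, red circles the members called by edgeR, and black and orange bars the medians of members and of all genes; the circled members are Rpl39l, Rpl7l1 and Rps4l.

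Rpl39l, the copy of the small 60S exit-tunnel protein Rpl39, rose at 16 h and 1.5 d relative to NW. It stood at 15.7, 13.6 and 21.4 CPM at 16 h, against 7.02, 4.70 and 3.48 CPM in NW. At 1.5 d it stood at 26.4, 18.9 and 9.78 CPM and at 3 d at 9.48, 6.93 and 15.6 CPM. Every 16 h and 1.5 d library exceeded every NW library, while 3 d replicate 2 lay just under NW replicate 1. These levels rest on 442 to 793 counts a library at 16 h and 1.5 d, and on 105 to 184 in NW. The log2 change was 1.74 ± 0.43 at 16 h (SE, edgeR adjusted p = 0.0108) and 1.86 ± 0.43 at 1.5 d (adjusted p = 0.00754). It was 1.08 ± 0.42 at 3 d, which missed the threshold (adjusted p = 0.0887). The 1.5 d call was lost with keratinocyte share as a covariate, at 2.04 (adjusted p = 0.0539). That share cannot be fully told apart from wounding. Both calls were lost when libraries were scaled to the members' sum. Of all genes 3.58% with the covariate and 2.7% with that scaling were called higher at 1.5 d, against 13.7% in the main fit. At 16 h the scaling called 1.65% higher, against 13.5%. The parent Rpl39 averaged 39.5 ± 22.1 CPM in NW and 44.7 ± 6.85 CPM at 16 h, then 30.4 ± 16.2 at 1.5 d and 40.4 ± 29.4 at 3 d (SD, n = 3), with log2 changes of 0.18 ± 0.51, −0.38 ± 0.51 and 0.03 ± 0.51 relative to NW. Rpl39l counts amounted to 15.9% ± 10.9 of Rpl39 counts in NW and to 37.6% ± 3.65 at 16 h, then to 65.9% ± 29.5 at 1.5 d and 30.6% ± 8.68 at 3 d. At 16 h and 1.5 d the groups did not overlap with NW, where a two-sided exact permutation test gives p = 0.1, the smallest it allows for 3 against 3, and 0.3 after adjustment over 30 ratio tests.

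Rpl7l1 was highest at 16 h. It stood at 181.9, 209.7 and 211.9 CPM there, against 87.0, 132.6 and 78.3 CPM in NW, and the groups did not overlap. The log2 change was 1.02 ± 0.25 (edgeR adjusted p = 0.00991), and 0.85 (adjusted p = 0.189) with libraries scaled to the members' sum. Levels were 171.9, 146.9 and 107.5 CPM at 1.5 d, with a change of 0.52 ± 0.25 relative to NW that missed the threshold (adjusted p = 0.146). At 3 d it stood at 112.3, 86.9 and 127.3 CPM, within the NW range. At 3 d relative to 16 h it fell by 0.89 ± 0.25 on the log2 scale (edgeR adjusted p = 0.0399). That call was lost when any library of 16 h or 3 d or replicate 2 of 1.5 d was left out, 7 of 12 cases, with log2 changes between −1.01 and −0.75 over all 12. The parent Rpl7, a 60S protein, averaged 362.5 ± 114.2 CPM at 16 h and 286.3 ± 130.9 in NW, a log2 change of 0.34 ± 0.39 (adjusted p = 0.569). Rpl7l1 counts amounted to 58.2% ± 13.5 of Rpl7 counts at 16 h, against 36.3% ± 5.41 in NW (exact permutation p = 0.1, adjusted 0.3).

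Rps4l, the retrocopy of the 40S gene Rps4x, rose at 1.5 d and 3 d relative to NW. It stood at 27.4, 27.2 and 28.6 CPM in NW, at 27.0, 35.1 and 58.2 CPM at 16 h, at 88.3, 61.5 and 48.4 CPM at 1.5 d and at 67.1, 60.9 and 115.4 CPM at 3 d. The NW libraries lay close together, and every 1.5 d and 3 d library exceeded them. The log2 change relative to NW was 0.53 ± 0.32 at 16 h (edgeR adjusted p = 0.254), 1.25 ± 0.33 at 1.5 d (adjusted p = 0.0143) and 1.55 ± 0.33 at 3 d (adjusted p = 0.00545). The 1.5 d call was lost without 1.5 d replicate 1, at 0.99 (adjusted p = 0.0570), with the keratinocyte covariate, at 1.52 (adjusted p = 0.0612), and with scaling to the members' sum, at 1.17 (adjusted p = 0.107). Rps4l was higher at 3 d than at 16 h by 1.02 ± 0.33, which missed the threshold (adjusted p = 0.0683), and was called without 16 h replicate 3, at 1.39. The parent Rps4x averaged 197.6 ± 69.9 CPM at 3 d and 246.3 ± 114.5 in NW, a log2 change of −0.32 ± 0.39 (adjusted p = 0.621). Rps4l counts amounted to 31.5% ± 5.54 of Rps4x counts at 1.5 d and 41.6% ± 7.03 at 3 d, against 12.8% ± 4.89 in NW, without overlap (exact permutation p = 0.1, adjusted 0.3, for each).

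**Figure D3:**
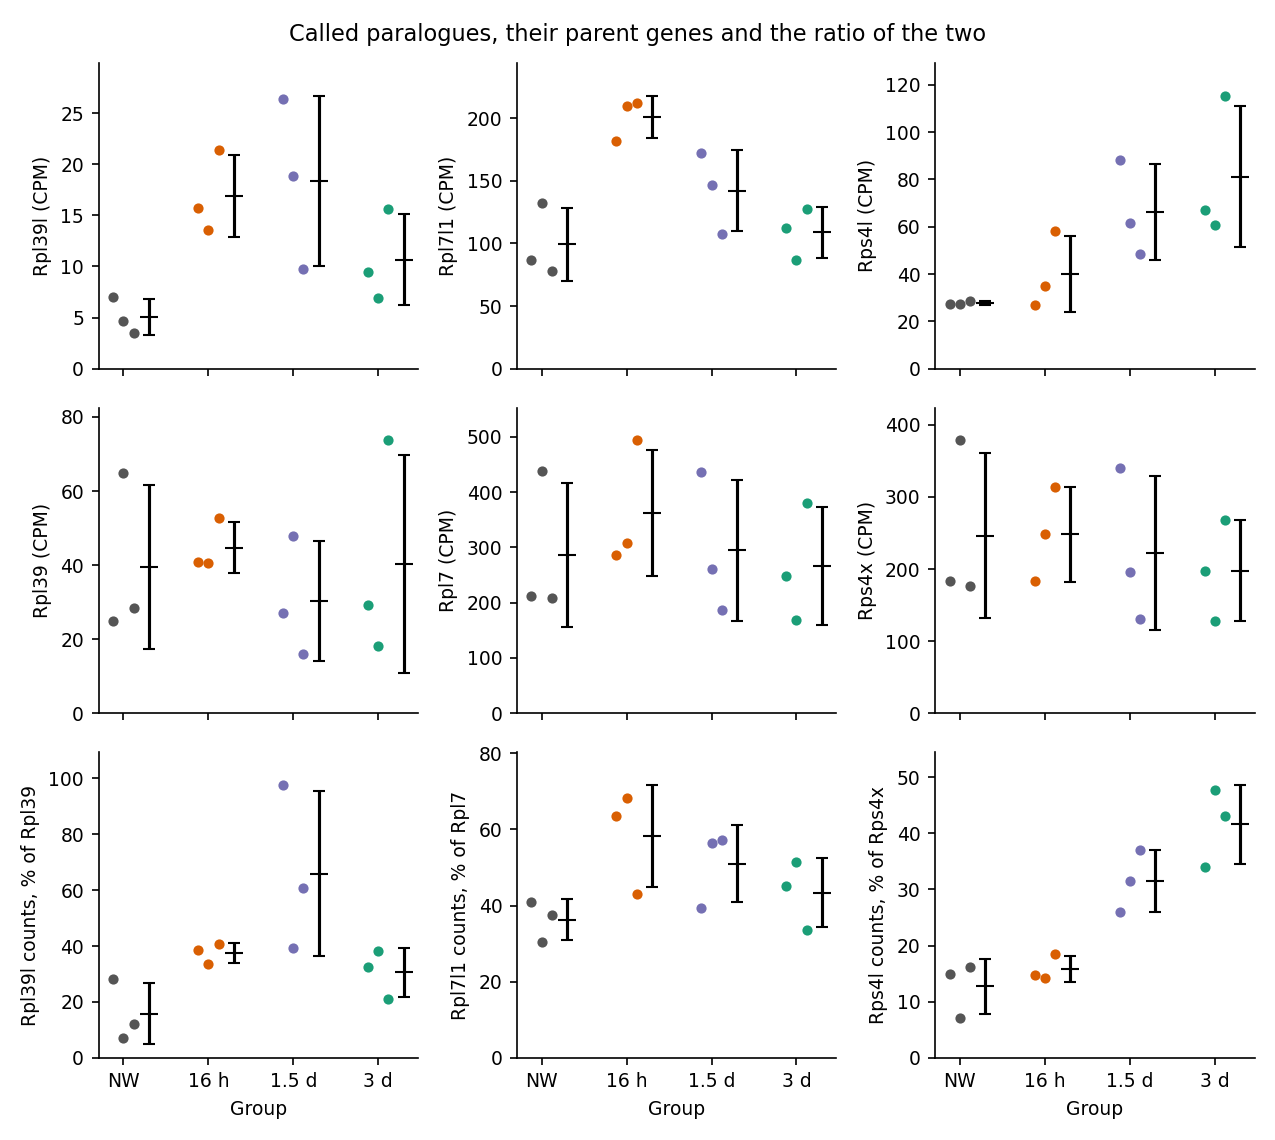
Levels of Rpl39l, Rpl7l1 and Rps4l (top row, CPM), of their parents Rpl39, Rpl7 and Rps4x (middle row, CPM) and the copy's counts as a percentage of the parent's (bottom row) in NW and at 16 h, 1.5 d and 3 d. Points are libraries, and black bars the mean ± SD (n = 3); Rpl39l is higher in the 16 h and 1.5 d libraries than in NW, Rpl7l1 in those of 16 h, and Rps4l in those of 1.5 d and 3 d, while the parents overlap between groups.

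Of the other 3 tested copies none was called by edgeR. Rpl22l1 averaged 41.8 ± 13.6 CPM in NW and 43.4 ± 9.90 CPM at 16 h, then 34.3 ± 17.5 at 1.5 d and 38.4 ± 21.5 at 3 d. Its parent Rpl22, an RNA-binding 60S protein, averaged 80.2 ± 45.3 CPM in NW and 49.2 ± 15.03 CPM at 16 h, then 41.9 ± 9.47 at 1.5 d and 44.4 ± 27.4 at 3 d. The log2 change of Rpl22 was −0.71 ± 0.44 at 16 h, −0.94 ± 0.44 at 1.5 d and −0.85 ± 0.44 at 3 d (adjusted p = 0.264, 0.141 and 0.192). Without NW replicate 2 those changes were −0.14, −0.37 and −0.28. As a share of the counts of all 85 members, Rpl22 took 5.824 to 6.855 per mille in NW. It took 3.183 to 4.514 per mille in the wounded libraries, without overlap. At 16 h, 1.5 d and 3 d, 15, 10 and 4 tested members were lower than NW without overlap in this share. Of all genes 18.4%, 12.7% and 7.76% were lower so. Higher were 26, 16 and 15 members, and 9.27%, 12.8% and 11.3% of all genes. These shares were not tested. Rpl22l1 counts amounted to 89.4% ± 6.20 of Rpl22 counts at 16 h and 88.0% ± 8.57 at 3 d, against 56.5% ± 12.5 in NW, without overlap (exact permutation p = 0.1, adjusted 0.3, for each). The Rpl22l1 counts are uncertain in view of the 50% of its stretches found in other genes. Rps27l, a p53 target in human cells, changed by 0.19 ± 0.45, −0.31 ± 0.45 and −0.26 ± 0.45 relative to NW. Rpl32l was counted 8 to 76 times a library and its changes had standard errors of 1.05 to 1.10.

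Among conventional members with a known role of their own, none passed the test. The stalk proteins Rplp0, Rplp1 and Rplp2, which bind elongation factors, changed by −0.23 ± 0.40, −0.10 ± 0.44 and 0.27 ± 0.46 at 16 h relative to NW, and by −0.54 ± 0.40, −0.28 ± 0.44 and −0.25 ± 0.46 at 3 d. Rpl5 and Rpl11, which carry 5S ribosomal RNA into the 60S subunit and bind Mdm2 when free, both overlapped between groups. Rpl5 stood at 120.6, 143.9 and 205.9 CPM at 16 h, against 56.5, 140.5 and 64.5 CPM in NW, a log2 change of 0.85 ± 0.40 (adjusted p = 0.141). Rpl11 stood at 62.9, 67.8 and 104.9 CPM at 16 h, against 48.4, 131.8 and 54.6 CPM in NW, a change of 0.01 ± 0.43. The difference between both changes was not tested, and 47.7% of the Rpl5 exon bases are shared with Dipk1a. Rps6, the S6 kinase substrate, changed by 0.46 ± 0.39 at 16 h (adjusted p = 0.429). Rpsa, which is also the laminin receptor, had its largest change at 1.5 d, 0.75 ± 0.40 (adjusted p = 0.189), from 594.0, 260.7 and 315.9 CPM against 153.9, 354.9 and 185.5 CPM in NW. Rpl6 had 0.82 ± 0.40 at 16 h (adjusted p = 0.152). Rpl10a and Rps25, described as uneven between ribosomes in mouse stem cells, changed by −0.19 ± 0.36 and −0.08 ± 0.46 at 16 h. Rpl3 and Rpl10, both 60S proteins, changed by 0.21 ± 0.30 and 0.18 ± 0.31.

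At 16 h and 1.5 d, the largest changes of conventional members belonged to Rpl30 and Rpl34, which share exons with other genes; at 3 d the largest was that of Rpl22. Rpl30 had the largest at 16 h, 1.48 ± 0.73, from 79 to 105 counts a library at 16 h against 13 to 42 in NW (adjusted p = 0.155). Rpl34 stood at 8.40, 7.83 and 12.0 CPM at 16 h and 15.4, 7.17 and 8.70 CPM at 1.5 d, against 3.13, 7.17 and 3.48 CPM in NW. Its log2 changes were 1.03 ± 0.46 (adjusted p = 0.123) and 1.18 ± 0.47 (adjusted p = 0.0821), and it was called at 1.5 d without NW replicate 2, at 1.66. Rps27, at 12 to 93 counts a library, changed by 0.55 ± 0.79 at 16 h.

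Genes that build ribosomes rose after wounding, most at 16 h; the difference from the members was not tested. Of 20 nucleolar biogenesis factors, 18 rose at 16 h, 13 at 1.5 d and 4 at 3 d relative to NW by edgeR, none fell, and 15 fell at 3 d relative to 16 h. Their median log2 change was 1.69 at 16 h and 0.48 at 3 d. Ncl, the nucleolar protein nucleolin, averaged 1624 ± 180.2 CPM at 16 h against 367.8 ± 36.5 CPM in NW, a log2 change of 2.14 (adjusted p = 3.49e-05). Mybbp1a rose by 2.35 (adjusted p = 2.6e-05). These factors together took 0.446%, 0.551% and 0.550% of counts at 16 h, against 0.130%, 0.172% and 0.152% in NW, without overlap. Of 12 chaperones and importers of ribosomal proteins, 8 rose at 16 h, 5 at 1.5 d and 3 at 3 d and none fell. The import receptor Ipo5 averaged 294.2 ± 52.8 CPM at 16 h against 73.7 ± 4.88 in NW (log2 change 2.00, adjusted p = 3.44e-05). Heatr3, which in human cells takes part in the import of Rpl5, rose by 1.69 (adjusted p = 7.65e-05).

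Other lists of the pathway were counted in the same way, and no test compared the lists. Beside each list stand the shares of all genes tested, at 16 h, 1.5 d and 3 d relative to NW. These were 13.5%, 13.7% and 12.0% called higher and 11.2%, 10.8% and 9.15% called lower. Of 17 other 5′ TOP genes, 8 rose at 16 h, 5 at 1.5 d and 2 at 3 d and none fell, with a median log2 change of 0.56 at 16 h. Nap1l1, a histone chaperone, rose by 1.31 (adjusted p = 0.00173) and the translation initiation factor Eif3l by 0.93 (adjusted p = 0.00339) at 16 h. Of 78 mitochondrial ribosomal protein genes, 7 rose at 16 h, 6 at 1.5 d and 0 at 3 d and none fell at these times, with 5 higher and 2 lower at an unadjusted p under 0.05 at 3 d. These shares lay below the 13.5% and 13.7% of all genes called higher at 16 h and 1.5 d. The median of the list was 0.26 at 16 h, and Mrpl38, with the smallest p, rose by 1.32 (adjusted p = 0.00381). Of the 4 ribosomal proteins outside the symbol rule, edgeR called 0, with 1 at an unadjusted p under 0.05, at 1.5 d. Rack1 changed by 0.94 at 16 h (adjusted p = 0.146). Of 17 genes of the mTORC1 and LARP1 pathway, 5 rose and 1 fell at 16 h, 2 rose and 1 fell at 1.5 d, and 4 rose and 0 fell at 3 d. Larp1, which binds the 5′ TOP tract, averaged 309.9 ± 61.5 CPM at 16 h against 139.5 ± 11.2 in NW (log2 change 1.15, adjusted p = 0.00237). Of 6 promoter factors known at ribosomal protein genes, 0 rose and 1, 2 and 2 fell at 16 h, 1.5 d and 3 d, Sp1 at each time (log2 change −0.83 at 16 h, adjusted p = 0.0370).

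**Figure D4:**
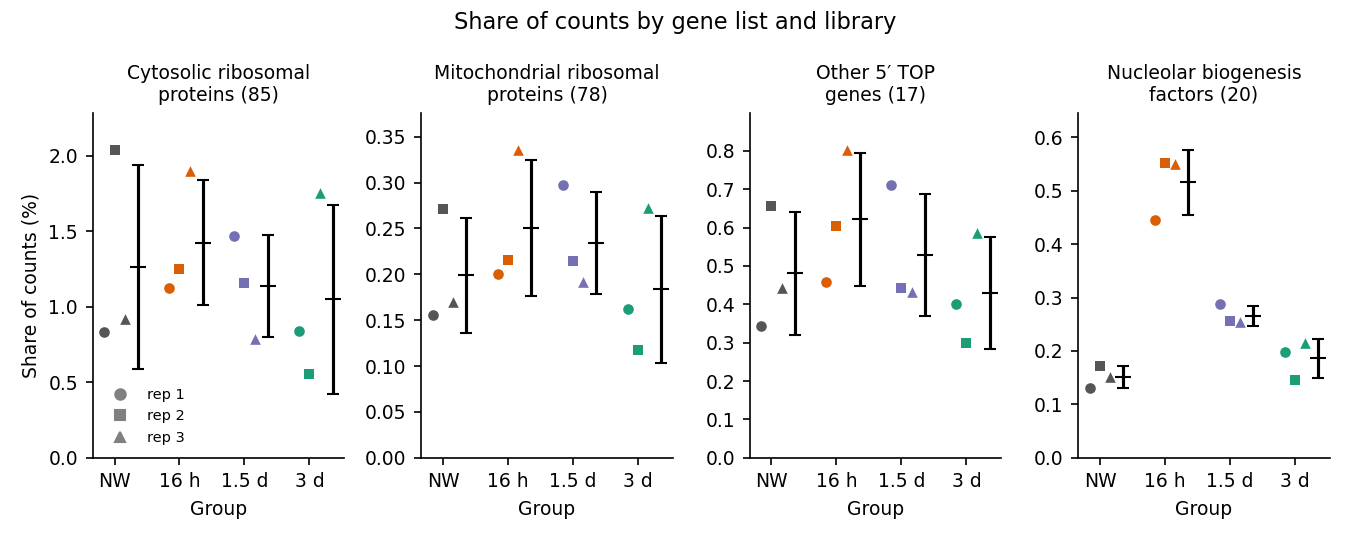
Share of each library's counts (%) in the 85 cytosolic ribosomal protein genes, 78 mitochondrial ribosomal protein genes, 17 other 5′ TOP genes and 20 nucleolar biogenesis factors, in NW and at 16 h, 1.5 d and 3 d. Marker shapes are replicates 1 to 3 and black bars the mean ± SD (n = 3); the first 3 panels overlap between all groups, and the 16 h libraries stand above all others in the last.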

How the data were processed

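Per the file headers, the authors counted paired fragments over exons of an mm10 refGene annotation with featureCounts 2.0.0. The recorded command sets no option for strand, multiple alignments or overlapping genes. The deposited values are counts without normalization; STAR, SAMtools, Subread and Partek are named in the submitters' processing notes without versions. Per the labels' protocols, cDNA came from a SMART-Seq v4 kit and libraries from Nextera XT, which keep no strand. All 12 columns were matched by name. The 14901 genes kept by filterByExpr were scaled by TMM and fitted by group over 12 libraries with edgeR 4.0.16 (robust quasi-likelihood, R 4.3.3). Adjusted p-values in the text come from this test, with Benjamini-Hochberg adjustment across the whole set of genes fitted. An SE is the log2 change over the square root of F, and so approximate. Replicates are different mice. The edgeR fit was tested on simulated data for 16 h relative to NW. Genes were drawn independently there, so shifts shared by many members within a group were not covered. Members and lists were chosen with earlier results of these data known. Named are a panel of 23 members (copies with parents, stalk, 5S and single proteins), the 8 members with the smallest p over all groups, called members, and up to 3 genes a list by smallest p; Rpl29, Rpl36, Rpl13 and Rpl4 and the start-site examples were added after values were seen, and some genes are not reported here. Copy to parent ratios were compared by exact permutation. Sequences come from RefSeq (GRCm38.p6) and GENCODE M21, aligned with Biopython 1.88. Alternatives were DESeq2, limma-voom, other scalings and filters, a replicate block and leaving out each library; scaling to the members' sum and a keratinocyte covariate were added after seeing the data.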

Additional observations from a re-analysis of the deposited data

How the results depend on the processing

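Of 264 counts of called members under alternatives, over 12 counts and 22 settings, 243 stayed within 1.5 times, and no called change reversed. Most of the 12 counts were 0 in the main fit, and every 0 that stayed 0 is among the 243. By gene, the call of Rpl7l1 at 3 d relative to 16 h held in 11 of 22 settings. The other calls held in 19 to 22. Higher at 16 h relative to NW were 2 members, and 0 when libraries were scaled to the members' sum. Of all genes 1.65% were called higher there with that scaling, against 13.5% in the main fit. Leaving out a library gave 2 to 6 members, and 8.44% to 13.5% of all genes. Higher at 1.5 d were 2, and 0 with either that scaling or a keratinocyte covariate, with 1 to 4 over leave-outs. Of all genes 2.7% with the scaling and 3.58% with the covariate were called higher there, against 13.7% in the main fit. The leave-outs gave 9.26% to 13.6%. With that scaling Rpl39l stood at 1.40 (adjusted p = 0.0909) at 16 h and 1.70 (adjusted p = 0.0508) at 1.5 d, and the median of all genes moved to −0.30 at 16 h and 0.21 at 3 d; with total counts alone it moved to −0.11 at 3 d. Higher at 3 d relative to NW was 1 under every alternative run, Rps4l; lower were 0, with 0 to 2 over leave-outs. Relative to 16 h, higher at 3 d were 0, but 1 (Rps4l) with DESeq2 or no filter, and 0 to 1 over leave-outs. Lower there was 1 (Rpl7l1), but 0 with no filter, the members' sum or the keratinocyte covariate, and 0 to 1 over leave-outs. With a replicate block it was also 0 (Rpl7l1 at −0.88, adjusted p = 0.0809). Of all genes, 1.96% were called lower there with no filter, 0.0604% with the members' sum, 2.25% with the covariate and 2.23% with the block. The main fit called 3.67% lower. Replicate numbers did not pair the mice: deviations of same-numbered libraries correlated at −0.29 to 0.26, above 0.1 in 4 of 18 pairs, and the block changed no other count. The cause of these shifts was not tested. Depth does not limit most members, but Rpl10l, Rpl26 and Rpl3l were too low to test, and Rpl32l, Rpl30 and Rps27 held at most 123 counts a library.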
